A study of Mus musculus with 6 samples.

Results

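Tumor cells signal to the immune system through secreted chemokines and growth factors, and 10 of these genes were followed in D2A1 cells: Ccl2, Ccl5, Ccl7, Ccl20, Cxcl1, Cxcl5, Cxcl10, Cxcl12, Cx3cl1 and Csf1. They were taken by gene name from the table of gene expression, which lists 54146 genes, and all 10 names were found once. D2A1 cells, which derive from a mouse mammary tumor, were kept as a line in 3D Matrigel culture in DMEM with 10% FBS. The cells were treated with 50 nM recombinant SLURP1 (rSLURP1), a secreted protein of the Ly6/uPAR family, or with 50 nM recombinant GST (rGST) as control protein, and by the study's methods spheroids were harvested on day 5. Each treatment had 3 RNAseq libraries, all from 1 cell line with the protein added to the medium. The labels do not say whether the 3 libraries came from separate cultures, so p-values measure the spread between these libraries, which may be technical. The study's methods describe a Smart-seq2 preparation and the labels a TruSeq mRNA kit.

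Chemokines are small secreted proteins that guide leukocytes along gradients by binding G protein-coupled receptors, and they are classed as CC, CXC, XC or CX3C by the spacing of their first cysteines. CXC chemokines with a Glu-Leu-Arg motif before the cysteines act mainly on neutrophils through CXCR2, whereas several CC chemokines draw monocytes, T cells or dendritic cells. CSF1 is the main growth and survival factor of monocytes and macrophages. In mammary tumors, such factors made by the tumor cells are known to shape which myeloid cells gather around them.

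Expression was given as TPM, a transcript abundance per length with equal totals for all libraries, so levels of different genes can be compared but read depth is unknown. Each gene was tested with limma on log2(TPM + 1) across the 12301 genes that reached a TPM of 1 in 3 or more libraries, at a Benjamini-Hochberg adjusted p of 0.05. For genes with low TPM the added 1 makes fold changes smaller than those of the TPM itself. The 3 libraries of a treatment were much alike (Pearson r across genes 0.983 to 0.986), and libraries of different treatments were less so (0.941 to 0.95). Most genes that differed were lower with rSLURP1, and the median log2 fold change of all tested genes was -0.33. With median-ratio scaling of the libraries instead, 26.6% of all tested genes were higher and 24.6% lower. Differences of the 10 genes were therefore also read relative to the median of all genes.

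With rSLURP1, Cxcl1 and Ccl20 rose and 7 of the 10 genes (Ccl2, Ccl7, Ccl5, Cxcl5, Cxcl10, Cx3cl1 and Csf1) fell, whereas Cxcl12 was listed at 0 TPM in all 6 libraries and was not tested, in a contrast where 8.66% of all tested genes were higher and 58.5% lower. Under median-ratio scaling 2 of the genes were called higher and 5 lower, without Ccl5 and Cxcl5. The median over the 9 tested genes was a log2 fold change of -0.76, beside -0.33 over all tested genes. Of them, 5 also changed at least 2-fold, Cxcl1 upward and Ccl2, Ccl7, Cxcl10 and Cx3cl1 downward, beside 1.15% of all tested genes higher and 7.06% lower by this measure. Ccl20 passed the filter on low values through all 3 rSLURP1 libraries and 1 rGST library, and Ccl7 through all 3 rGST libraries and 2 rSLURP1 libraries. The libraries of both treatments did not overlap for Cxcl1 and Ccl20 (higher) and for 6 genes that were lower, beside 9.75% and 61.7% of all tested genes. For groups of 3 the smallest two-sided p of an exact permutation test is 0.1, and single-gene tests gave 0.1 for each of these 8 genes and 0.2 for Ccl5.

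**Figure D1:**
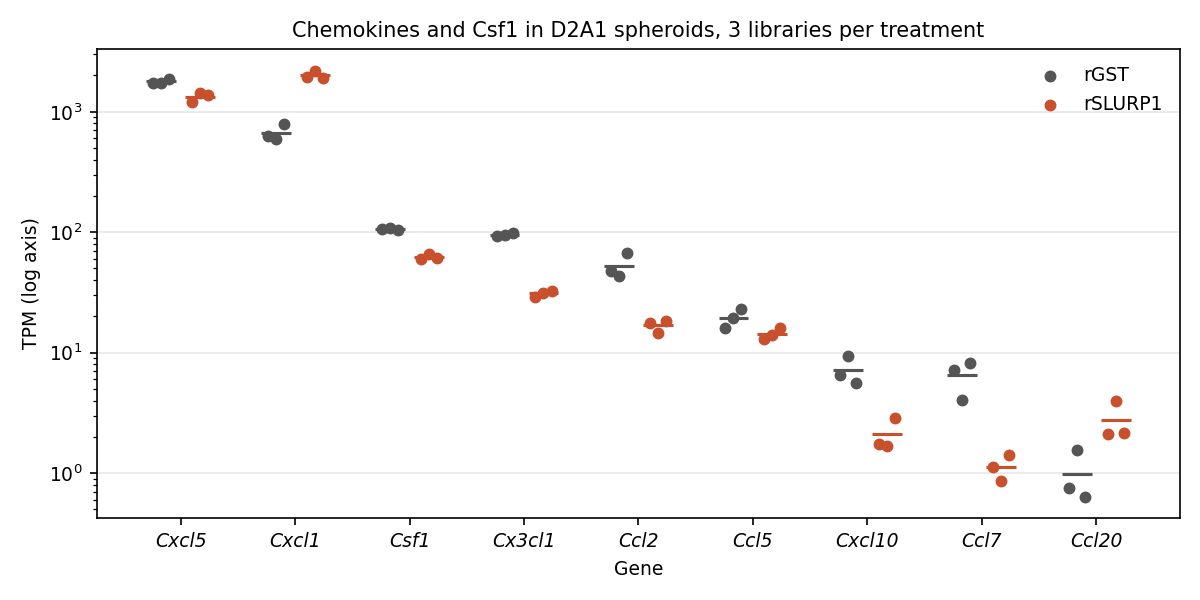
TPM on a log axis of 9 genes, ordered by their mean with rGST, in 3 rGST and 3 rSLURP1 libraries (points are libraries and lines are means). Cxcl12, at 0 TPM in all libraries, cannot be drawn. The points of Cxcl1 and Ccl20 lie higher with rSLURP1 and those of the other genes lower, with overlap for Ccl5.

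Levels spanned a wide range. With rGST the order from high to low was Cxcl5, Cxcl1, Csf1, Cx3cl1, Ccl2, Ccl5, Cxcl10, Ccl7, Ccl20 and Cxcl12, and of the neighbors in this order Cxcl10 and Ccl7 overlapped between libraries. With rSLURP1 it was Cxcl1, Cxcl5, Csf1, Cx3cl1, Ccl2, Ccl5, Ccl20, Cxcl10, Ccl7 and Cxcl12, with overlap between Ccl2 and Ccl5 and between Ccl20 and Cxcl10. By mean TPM among the tested genes, Cxcl5 ranked 74 with rGST and 123 with rSLURP1, and Cxcl1 ranked 193 and 91. Thus Cxcl1 and Cxcl5 were among the most abundant transcripts of these cells under both treatments.

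Sequences before the transcription start of the genes that rose (Cxcl1 and Ccl20) and of a pair that fell (Csf1 and Cxcl10) are shown because the sets moved in opposite directions. They come from RefSeq (build GRCm38.p6), whose promoter table held 6 of the 10 genes. Each runs 5′ to 3′ on the strand of its gene and ends before the first annotated exonic base: Cxcl1 at chr5:90890995-90891240 (plus strand), Ccl20 at chr1:83116516-83116765 (plus strand), Csf1 at chr3:107760470-107760719 (minus strand) and Cxcl10 at chr5:92348890-92349139 (minus strand). Capitals mark matches, on either strand, to 4 motifs. The first is a narrow form of the kB sites bound by NF-kB (GGG, any 2 bases, TTTCC). Other forms of kB site were not searched, so unmarked stretches, also in Cxcl10, may hold them. The other motifs are the core of interferon-stimulated response elements (GAAA, any 2 bases, GAAA), AP-1 (TGANTCA) and KLF4 (CCCCACCC). The KLF4 letters are those that the study's text gives for the Slurp1 promoter.
Cxcl1: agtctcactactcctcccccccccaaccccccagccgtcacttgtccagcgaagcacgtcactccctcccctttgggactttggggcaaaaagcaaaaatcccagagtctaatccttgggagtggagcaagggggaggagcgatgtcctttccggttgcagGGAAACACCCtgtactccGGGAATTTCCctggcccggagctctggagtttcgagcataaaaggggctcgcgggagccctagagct
Ccl20: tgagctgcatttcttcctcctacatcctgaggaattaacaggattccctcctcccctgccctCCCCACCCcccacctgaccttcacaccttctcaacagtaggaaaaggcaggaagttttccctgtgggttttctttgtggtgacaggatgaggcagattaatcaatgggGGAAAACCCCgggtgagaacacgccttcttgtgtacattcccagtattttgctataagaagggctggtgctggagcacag
Csf1: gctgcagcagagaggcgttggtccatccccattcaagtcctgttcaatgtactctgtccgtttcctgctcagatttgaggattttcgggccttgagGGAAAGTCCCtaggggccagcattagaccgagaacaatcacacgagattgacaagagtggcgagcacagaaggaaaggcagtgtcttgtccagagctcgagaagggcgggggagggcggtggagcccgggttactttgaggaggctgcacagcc
Cxcl10: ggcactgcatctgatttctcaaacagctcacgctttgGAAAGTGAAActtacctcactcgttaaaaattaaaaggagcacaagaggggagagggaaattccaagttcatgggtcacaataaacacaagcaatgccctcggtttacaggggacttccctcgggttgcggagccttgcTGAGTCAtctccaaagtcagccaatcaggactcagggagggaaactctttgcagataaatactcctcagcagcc
Cxcl1 held matches to the kB letters at 89 to 80 and at 71 to 62 bases before the RefSeq start. Ccl20 held a kB match at 80 to 71 bases and a KLF4 match at 188 to 181 bases before its start, and Csf1 held a kB match at 154 to 145 bases. The kB letters were thus found both in genes that rose and in a gene that fell. Cxcl10 held the interferon element letters at 213 to 204 bases and the AP-1 letters at 74 to 68 bases. The AP-1 letters of Cxcl10 matched on both strands at the same bases, and no other matches overlapped each other. None of the 4 motifs was found in the 250 bases before the RefSeq starts of Cx3cl1 and Cxcl12, of which 171 were annotated exonic bases for Cx3cl1. Over the 32851 promoters of the table and the same 250 bases, 1.41% held the kB letters, 2.98% the interferon element, 6.75% AP-1 and 9.05% KLF4. These matches are letters in a window and were not tested as binding sites.

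Among the CXC chemokines, Cxcl1 and Cxcl5, ligands of CXCR2 that attract neutrophils, moved apart. Cxcl1 (ENSMUSG00000029380.11, GRCm38 chromosome 5, 90891241 to 90893115, plus strand) had TPM of 626.61, 595.91 and 789.89 in the rGST libraries and 1942.36, 2197.97 and 1915.18 in the rSLURP1 libraries. The lowest rSLURP1 library was more than double the highest rGST library. Its mean TPM rose 3.01-fold, from 670.8 ± 104.3 to 2019 ± 156.0 (SD, n = 3 each). On the log2 scale Cxcl1 rose by 1.60 (standard error [SE] 0.107, limma adjusted p = 1.49e-05), which ranked 61 of the 12301 tested genes from the largest increase.

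Cxcl5 (ENSMUSG00000029371.7, chromosome 5, 90759360 to 90761624, plus strand) had TPM of 1743.82, 1744.83 and 1885.52 with rGST and 1196.09, 1419.68 and 1390.52 with rSLURP1. All rSLURP1 libraries lay below all rGST libraries, with means of 1791 ± 81.5 and 1335 ± 121.6 TPM (SD, n = 3 each). For Cxcl5 the log2 fold change was -0.43 (SE 0.070, limma adjusted p = 0.00113), and -0.10 after the all-gene median was subtracted. The size of this decrease depended on the scaling: with median-ratio scaling the log2 fold change was -0.06 (limma adjusted p = 0.431), and with quantile normalization it was -0.72 (limma adjusted p = 1.00e-04).

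Cxcl1 and Cxcl5 lie on the same strand of chromosome 5, 129616 bases apart. The ratio of Cxcl1 to Cxcl5 TPM is not changed by scaling a library with a single factor. It was 0.359, 0.342 and 0.419 in the rGST libraries and 1.62, 1.55 and 1.38 in the rSLURP1 libraries, so that Cxcl5 exceeded Cxcl1 in all rGST libraries and Cxcl1 exceeded Cxcl5 in all rSLURP1 libraries. The ratio was 4.07-fold higher with rSLURP1 (log2 difference 2.02, standard error 0.113; exact permutation test, two-sided p = 0.1, the smallest possible here).

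**Figure D2:**
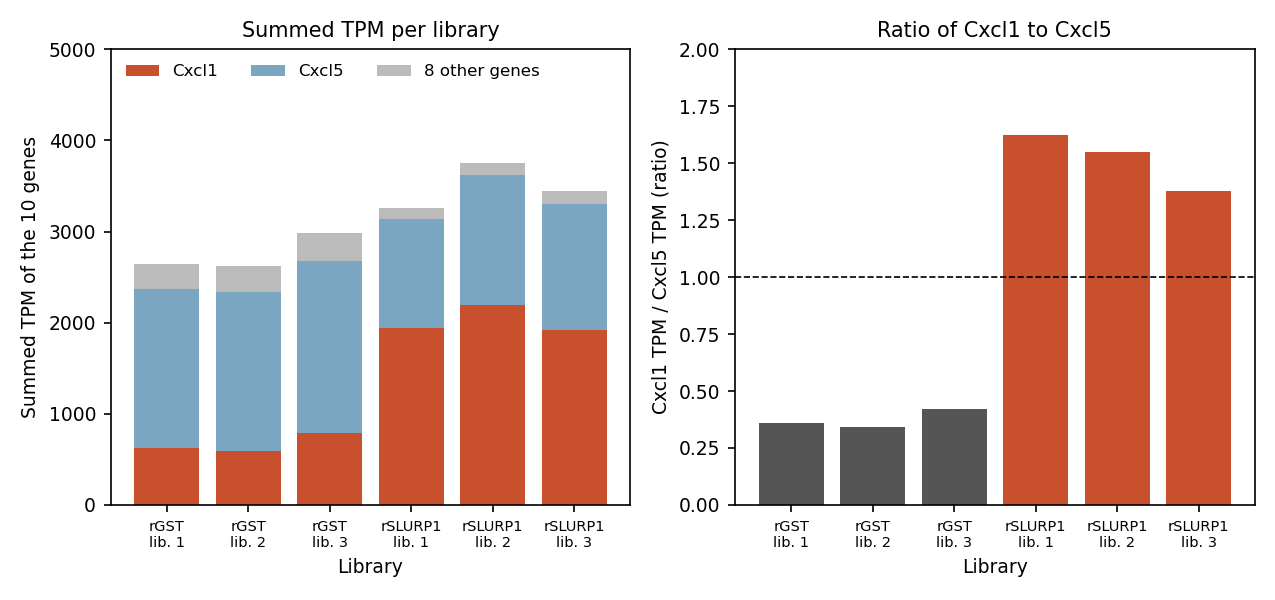
Left, summed TPM of the 10 genes in each library, split into Cxcl1, Cxcl5 and the 8 other genes; right, ratio of Cxcl1 to Cxcl5 TPM in each library, with a dashed line at equal levels. Cxcl1 took 22.7% to 26.5% of the sum with rGST and 55.7% to 59.5% with rSLURP1, and the ratio lay below 1 in all rGST libraries and above 1 in all rSLURP1 libraries.

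Together the 10 genes held 2621 to 2982 TPM with rGST and 3263 to 3749 TPM with rSLURP1, with no overlap between treatments (exact permutation test, two-sided p = 0.1). Cxcl1 and Cxcl5 made up 89.3% to 89.7% of this sum with rGST and 96.1% to 96.5% with rSLURP1. The sum was therefore higher with rSLURP1 although 7 of its genes were lower.

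Cxcl10 (ENSMUSG00000034855.13, chromosome 5, 92346638 to 92348889, minus strand), an interferon-induced ligand of CXCR3 that draws T and NK cells, had TPM of 6.52, 9.35 and 5.63 with rGST and 1.75, 1.67 and 2.87 with rSLURP1. The treatments did not overlap, and mean TPM was 3.42-fold lower with rSLURP1 (7.17 ± 1.94 and 2.10 ± 0.671, SD, n = 3 each). Cxcl10 had a log2 fold change of -1.39 (SE 0.211, limma adjusted p = 7.64e-04), and -1.07 after the all-gene median was subtracted. Cxcl12 (ENSMUSG00000061353.11, chromosome 6, 117168535 to 117181367, plus strand), the ligand of CXCR4, was listed at 0 in all libraries. None of 12 housekeeping genes was at 0 in any library, and their lowest mean was 27.3 TPM (Tbp with rSLURP1). Genes at such levels cannot show whether a rare transcript would have been detected.

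Among the CC chemokines, Ccl2 and Ccl7, ligands of CCR2 that draw monocytes, fell together. Ccl2 (ENSMUSG00000035385.5, chromosome 11, 82035571 to 82037453, plus strand) had TPM of 47.46, 43.10 and 66.99 with rGST and 17.66, 14.65 and 18.33 with rSLURP1. The rGST libraries were uneven but all lay above the rSLURP1 libraries, with means of 52.5 ± 12.7 and 16.9 ± 1.96 TPM (SD, n = 3 each). For Ccl2 the log2 fold change was -1.56 (SE 0.162, limma adjusted p = 1.17e-04).

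Ccl7 (ENSMUSG00000035373.2, chromosome 11, 82045712 to 82047525, plus strand) begins 8258 bases beyond the end of Ccl2. It had TPM of 7.25, 4.02 and 8.15 with rGST and 1.12, 0.86 and 1.42 with rSLURP1. All rSLURP1 libraries lay below all rGST libraries for both genes, and Ccl7 had the lower level. Ccl7 had a log2 fold change of -1.77 (SE 0.236, limma adjusted p = 4.08e-04), and its mean TPM was 5.71-fold lower with rSLURP1. Relative to the median of all genes, the log2 fold changes were -1.24 for Ccl2 and -1.44 for Ccl7. The ratio of Ccl2 to Ccl7 TPM was 0.86 higher on the log2 scale with rSLURP1 (SE 0.238, exact permutation test, two-sided p = 0.1).

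Ccl5 (ENSMUSG00000035042.2, chromosome 11, 83525778 to 83530518, minus strand), which draws T cells and monocytes, had TPM of 15.94, 19.49 and 22.89 with rGST and 13.01, 13.94 and 16.13 with rSLURP1. The lowest rGST library lay below the highest rSLURP1 library. Ccl5 had a log2 fold change of -0.40 (SE 0.135, limma adjusted p = 0.0302), and -0.08 after the all-gene median was subtracted. With median-ratio scaling it was -0.06 (limma adjusted p = 0.732). The call was also lost in 4 of the 6 fits that left out 1 library: the adjusted p was 0.0724 without rGST library 2, 0.0851 without rGST library 3, 0.0930 without rSLURP1 library 1 and 0.0789 without rSLURP1 library 2.

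Ccl20 (ENSMUSG00000026166.14, chromosome 1, 83116766 to 83119167, plus strand), the ligand of CCR6 on dendritic cells and Th17 cells, had TPM of 0.76, 1.57 and 0.64 with rGST and 2.11, 3.99 and 2.16 with rSLURP1. All rSLURP1 libraries lay above all rGST libraries, at levels of a few TPM. Ccl20 had a log2 fold change of 0.91 (SE 0.252, limma adjusted p = 0.0140). It was 1.42 with a pseudocount of 0.1, and without the filter on low values the adjusted p was 0.0503.

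Cx3cl1 and Csf1, which are both made as membrane-anchored forms and shed by proteases, both fell with little spread between libraries. Cx3cl1 (ENSMUSG00000031778.13, chromosome 8, 94772009 to 94782427, plus strand), the ligand of CX3CR1 on monocytes and NK cells, had TPM of 92.73, 94.73 and 98.74 with rGST and 29.24, 31.21 and 32.83 with rSLURP1. The treatments were far apart compared with their spread, at 95.4 ± 3.06 and 31.1 ± 1.80 TPM (SD, n = 3 each). Cx3cl1 had a log2 fold change of -1.59 (SE 0.056, limma adjusted p = 9.04e-07), the smallest adjusted p of the 9 tested genes.

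Csf1 (ENSMUSG00000014599.10, chromosome 3, 107741048 to 107760469, minus strand) had TPM of 105.88, 108.24 and 103.46 with rGST and 59.97, 65.34 and 60.58 with rSLURP1. All rSLURP1 libraries lay well below all rGST libraries, at 62.0 ± 2.94 against 105.9 ± 2.39 TPM (SD, n = 3 each), a 1.71-fold decrease. Csf1 had a log2 fold change of -0.76 (SE 0.048, limma adjusted p = 1.13e-05), and -0.44 after the all-gene median was subtracted. With median-ratio scaling it was -0.41 (limma adjusted p = 1.24e-04).

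**Figure D3:**
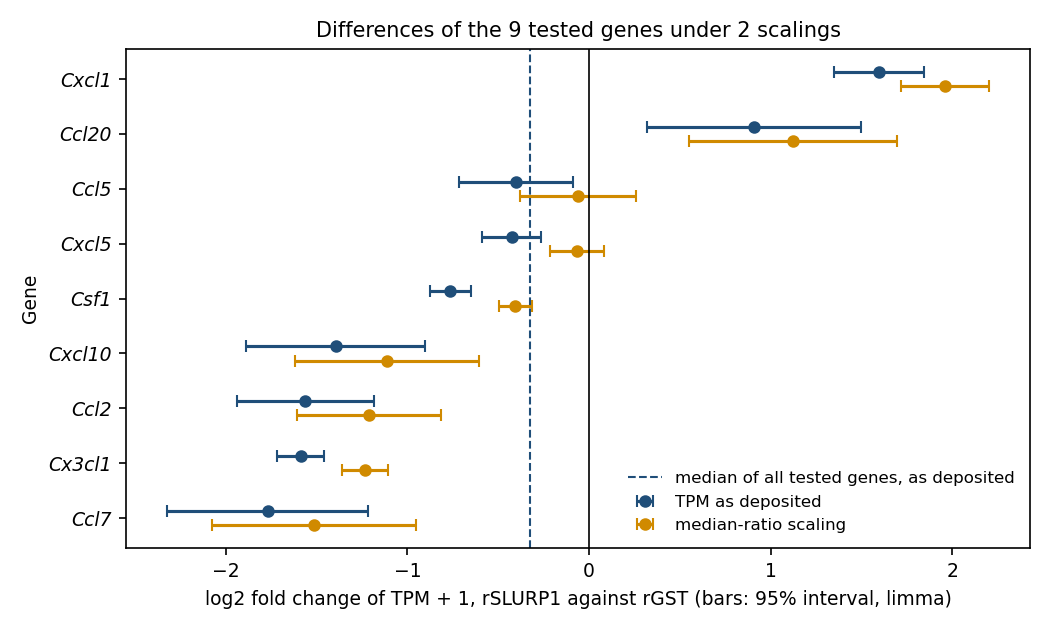
Log2 fold change of TPM + 1 with rSLURP1 against rGST (x axis) for the 9 tested genes (y axis), with TPM as deposited and with median-ratio scaling; bars are 95% intervals of limma and the dashed line is the median of all tested genes. Cxcl1 and Ccl20 lie above 0 and Csf1, Cxcl10, Ccl2, Cx3cl1 and Ccl7 below 0 under both scalings, while the intervals of Ccl5 and Cxcl5 span 0 with median-ratio scaling.

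Transcript length was not alike over these genes, and over the 12293 tested genes with a known length the Spearman correlation between length and log2 fold change was -0.25 (across genes, which are no independent replicates). The longest transcript had 668 bases for Ccl5, 801 for Ccl7, 1096 for Ccl2, 1417 for Ccl20, 1871 for Cxcl1 and 1863 for Cxcl5, and 2230 to 4176 for Cxcl10, Cx3cl1 and Csf1, beside a median of 3152 over tested genes. Cxcl1 and Cxcl5, of nearly equal length, had log2 fold changes of 1.60 and -0.43 with TPM as deposited. After a correction for length and GC content, the log2 fold change of Cxcl5 was -0.15 (limma adjusted p = 0.0964) and that of Ccl5 was -0.34 (limma adjusted p = 0.0611), and the other 7 tested genes kept their direction and their call, beside 27.0% of all genes called higher and 21.9% lower in that fit.

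The wider pathway was read from 4 lists of 67 genes, of which 12 were tested, 3 were higher and 6 lower, beside 8.66% and 58.5% of all tested genes. Of 30 other chemokine ligands, 4 were tested and 13 were listed at 0 in all libraries. Ccl3, a ligand of CCR1, rose from 0.33, 0.38 and 0.06 TPM to 1.60, 1.66 and 2.16 TPM (log2 fold change 1.16, SE 0.179, limma adjusted p = 8.35e-04). It passed the filter on low values through the rSLURP1 libraries alone, so a gene at its rGST level had to be higher to be tested. Ccl17, a ligand of CCR4 whose gene lies 28025 bases from Cx3cl1, fell from 4.83, 6.23 and 5.18 TPM to 0.48, 3.10 and 1.24 TPM (log2 fold change -1.42, SE 0.337, limma adjusted p = 0.00689). Ccl25, a ligand of CCR9, and Cxcl3, a further CXCR2 ligand whose gene lies 24478 bases from Cxcl5, had log2 fold changes of -0.15 (95% interval -0.50 to 0.20) and 0.08 (-0.50 to 0.66) and did not pass the test.

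Growth factors of myeloid cells moved in both directions. Csf3, which encodes the neutrophil growth factor G-CSF, had TPM of 6.56, 4.88 and 6.52 with rGST and 37.22, 46.58 and 30.74 with rSLURP1. All rSLURP1 libraries lay far above all rGST libraries, a 6.38-fold increase in mean TPM (log2 fold change 2.48, SE 0.162, limma adjusted p = 1.38e-05) that ranked 25 of all tested genes. Il34, which encodes the other ligand of the CSF1 receptor, had TPM of 29.36, 21.97 and 21.88 with rGST and 3.40, 3.08 and 2.51 with rSLURP1. All rSLURP1 libraries lay far below all rGST libraries (log2 fold change -2.66, SE 0.140, limma adjusted p = 5.40e-06). The ratio of Csf1 to Il34 TPM was 3.61 to 4.93 with rGST and 17.6 to 24.1 with rSLURP1 (exact permutation test, two-sided p = 0.1). Kitl, which encodes stem cell factor, fell from 45.7 ± 5.97 to 19.7 ± 2.29 TPM (SD, n = 3 each; log2 fold change -1.17, limma adjusted p = 7.58e-05). Flt3l did not pass the test (log2 fold change 0.06, 95% interval -0.38 to 0.50), and Csf2 stayed at 0.27 TPM or less.

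**Figure D4:**
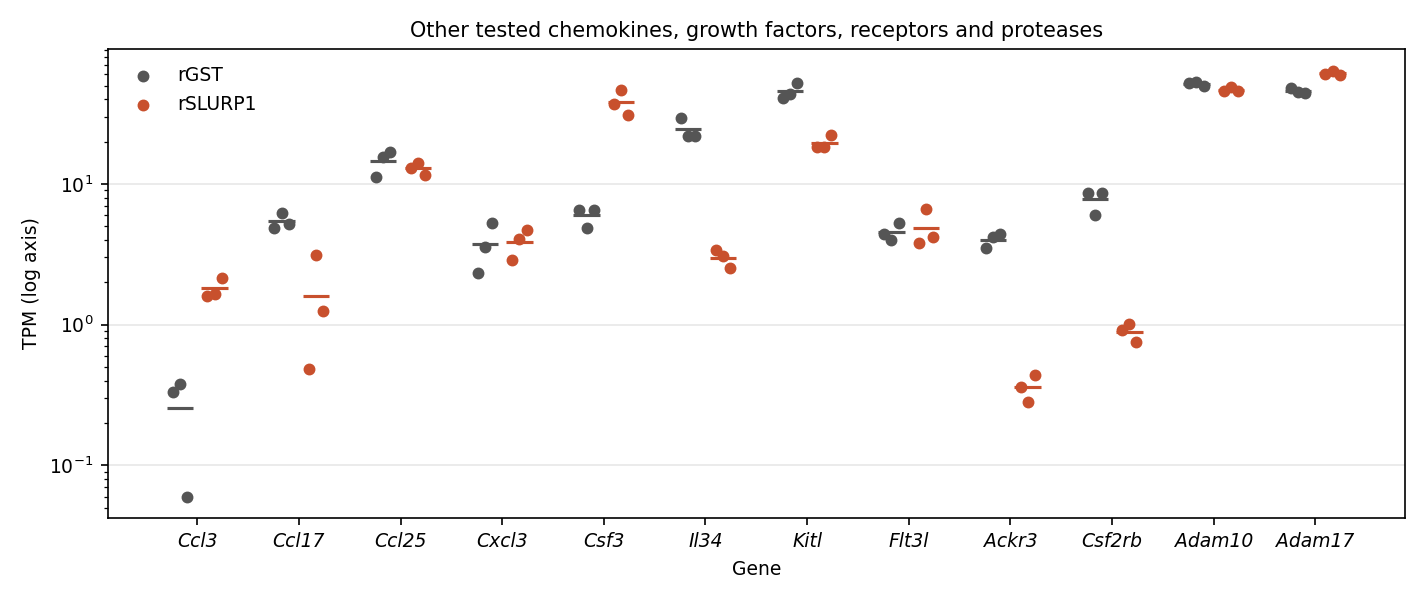
TPM on a log axis of the 12 tested genes of the pathway lists in 3 rGST and 3 rSLURP1 libraries (points are libraries and lines are means). Csf3, Ccl3 and Adam17 lie higher with rSLURP1, Il34, Kitl, Ccl17, Ackr3, Csf2rb and, with TPM as deposited but not with median-ratio scaling, Adam10 lower, and Ccl25, Cxcl3 and Flt3l overlap.

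Receptors were nearly absent. Of 29 receptor genes, 2 were tested and 13 were listed at 0 in all libraries, among them Ccr2, Ccr6, Cxcr3 and Cxcr4, the receptors of Ccl2 and Ccl7, Ccl20, Cxcl10 and Cxcl12. Cxcr2 did not exceed 0.09 TPM, Csf1r 0.05 TPM and Cx3cr1 0.35 TPM in any library. Ackr3, an atypical receptor that takes up CXCL12, fell from 4.02 ± 0.474 to 0.360 ± 0.080 TPM (SD, n = 3 each; log2 fold change -1.88, SE 0.141, limma adjusted p = 2.59e-05). It passed the filter through the rGST libraries alone. Csf2rb, the common beta chain of the receptors of GM-CSF, IL-3 and IL-5, fell from 7.76 ± 1.48 to 0.890 ± 0.131 TPM (SD, n = 3 each; log2 fold change -2.20, SE 0.156, limma adjusted p = 1.96e-05), with 1 rSLURP1 library above the filter's TPM of 1. Of the proteases, Adam17, which sheds Cx3cl1 and Csf1 from the cell surface, rose from 45.5 ± 2.15 to 61.2 ± 2.32 TPM (SD, n = 3 each; log2 fold change 0.42, limma adjusted p = 3.33e-04), and its log2 fold change was 0.78 with median-ratio scaling and 0.82 after the length and GC correction. Adam10, which also sheds Cx3cl1, was lower as deposited (log2 fold change -0.14, limma adjusted p = 0.0457) and higher with median-ratio scaling (0.22, limma adjusted p = 0.00514). The call as deposited was lost in 4 of the 6 fits that left out 1 library, with limma adjusted p of 0.125 without rGST library 1, 0.132 without rGST library 2, 0.119 without rSLURP1 library 1 and 0.122 without rSLURP1 library 3. Dpp4, which trims several chemokines, was listed at 0 in all libraries.

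Markers of cell types that make or answer to these factors were read in the same libraries. Of the leukocyte markers, Ptprc did not exceed 0.01 TPM in any library and Cd3e was listed at 0, and Pecam1, Cdh5 and Kdr of endothelium summed to at most 0.31 TPM. Of 5 monocyte and macrophage markers, Adgre1 and Itgam were listed at 0, Csf1r and Lyz2 did not exceed 0.27 TPM, and Cd68, a lysosomal gene, rose from 3.77 ± 0.265 to 9.60 ± 1.61 TPM (SD, n = 3 each; limma adjusted p = 1.90e-04). Of the markers of the labelled mammary tumor cell, 3 of 5 were tested and 2 fell, beside 58.5% of all tested genes lower. Vim fell from 1259 ± 78.4 to 664.5 ± 30.3 TPM (SD, n = 3 each, log2 fold change -0.92, limma adjusted p = 9.52e-06). Krt8 fell from 1.56 ± 0.140 to 0.697 ± 0.163 TPM (log2 fold change -0.60, limma adjusted p = 0.00968). It passed the filter through the rGST libraries alone. With median-ratio scaling its call was lost (log2 fold change -0.41, limma adjusted p = 0.0571). Krt18 had a mean of 195.6 TPM with rGST and 197.7 with rSLURP1, while Epcam was listed at 0 and Cdh1 did not exceed 0.07 TPM. Of 7 fibroblast markers, 5 were tested (Pdgfra, Pdgfrb, Dcn, Lum and Col1a1) and all 5 fell, beside 58.5% of all tested genes lower. All 5 were called at least 2-fold lower, beside 7.06% of all tested genes. Their log2 fold changes ran from -1.85 for Pdgfra to -6.49 for Dcn and -6.55 for Lum. Col1a1 passed the filter through the rGST libraries alone. Col1a2 and Thy1 were not tested and did not exceed 0.49 and 0.77 TPM in any library. The 7 markers summed to 1007 to 1138 TPM with rGST and 75.2 to 85.1 TPM with rSLURP1. Their part in the differences of the chemokines and Csf1 was not tested, and in such bulk samples fewer cells of a type and less RNA per cell cannot be told apart.

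Other genes followed the pattern of these factors over the 6 libraries, given here as a description because the libraries form 2 treatment groups and most genes differ between them. By Pearson correlation of log2(TPM + 1), the nearest gene was Fcgrt for Cx3cl1, Tbc1d7 for Ccl2, Rragc for Ccl7, Zc3h13 for Cxcl5, Efhd2 for Cxcl10, Cipc for Ccl5, Fth1 for Cxcl1 and Ier2 for Ccl20, with r above 0.99 (n = 6). An r above 0.95 was reached by 4018 genes with Cx3cl1 and 4143 with Csf1, against 499 with Cxcl1, 55 with Ccl5 and 37 with Ccl20.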

How the data were processed

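RNAseq libraries of D2A1 cells, 3 with rGST and 3 with rSLURP1, were grouped by the sample labels. Per the labels and the study's methods, the authors used Cutadapt for trimming, STAR 2.5.2b for alignment to mm10 and RSEM for the gene TPM they deposited, with 1 column per library. The submitters' processing notes give Cutadapt 1.18 and RSEM 1.3.3, and the study's methods name earlier versions of both, with GENCODE M12. Coordinates and transcript lengths came from GENCODE M21 (same build); 54079 of 54146 identifiers matched without their version. TPM keeps no depth, so no counting error was computed.

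The 12301 genes that reached a TPM of 1 in 3 or more libraries were tested on log2(TPM + 1) with limma 3.58.1 in R 4.3.3 (eBayes with trend, no block, Benjamini-Hochberg over all genes). The fit was also run on simulated data in which few genes changed. Most genes were called in the real data, so that run cannot show how the fit performs on them. Single values were compared by exact two-sided permutation tests. The genes and lists were chosen with earlier results of these data known. Named were the 10 genes, the pathway genes past the threshold (up to 15 by size) and, for each tested gene, the non-member with the highest correlation; the other pathway and marker genes given, such as Ccl25, Cxcl3, Flt3l, Csf2 and the receptors near 0, and the ratios between genes were chosen after their values were seen. Some genes of the rule and lists are not reported here. Alternatives were a pseudocount of 0.1, other filters, scaling by median ratios or quantiles, TPM without mitochondrial genes, no eBayes trend, a loess correction for length and GC content (span 0.3), the replicate number as a block, and leaving out each library. Figures were made with matplotlib 3.10.9.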

Additional observations from a re-analysis of the deposited data

How the results depend on the processing

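Cxcl1, Ccl2, Ccl7, Cxcl10, Cx3cl1 and Csf1 kept their direction and their call under the alternatives in which they were tested, with log2 fold changes of 1.45 to 1.96, -1.69 to -1.19, -2.38 to -1.42, -1.73 to -1.0, -1.63 to -1.18 and -0.80 to -0.31. Over the 9 genes and all alternatives, 130 values kept direction and call, 12 lost the call and 0 changed direction. Ccl5 lost its call without the filter (-0.40, limma adjusted p = 0.0881), when libraries were scaled by median ratios (-0.061) or quantiles (-0.0012) and after correcting for length and GC content (-0.34), and ranged from -0.53 to -0.28 when each library was left out. Cxcl5 lost its call when libraries were scaled by median ratios (-0.064) and after correcting for length and GC content, whether the replicate block was used or not (-0.15 in both). Ccl20 lost its call without the filter (0.91, limma adjusted p = 0.0503), so 1 gene was then called higher in place of 2; with a TPM of at least 1 in all 6 libraries, 1 was called because Ccl20 was not tested. Of the pathway genes, 3 in place of 6 were called lower with that filter, which tests fewer genes, and 5 in place of 3 were called higher with the replicate block and the length and GC correction. The sign of Adam10 reversed, to 0.22 for median ratios, 0.18 for quantiles and 0.25 after correcting for length and GC content, whether blocked or not. These scalings moved the median of all tested genes from -0.33 to 0.01, 0.02 and 0.03. Where no cause is given, the cause was not tested.

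The numbers shared by the libraries did not pair them: after group means were subtracted, libraries with the same number correlated at -0.061 to -0.034 across genes. With the replicate block, 7962 genes were called in place of 8265, and 2 of the 10 genes were again called higher and 7 lower; of the named genes, Adam10 lost its call (limma adjusted p = 0.0584), as it also did without the filter (0.0582), without mitochondrial genes (0.0873) and without the eBayes trend (0.0730). Leaving out each library gave 7561 to 7905 called genes. Without read depths, the counting error of Ccl20, Ccl7 and Cxcl10, at a few TPM, could not be computed.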
